A study of Mus musculus with 12 samples.

Results

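Expression of 28 genes of cholesterol metabolism was examined in mouse mammospheres, the floating spheres that mammary cells form in suspension culture. The genes were taken by name from the deposited table, and the list was chosen with earlier results of these data known. They comprise 18 enzymes of sterol synthesis, 4 genes of the SREBP2 control circuit, 2 genes of intracellular sterol transport and 4 genes of efflux and its control by the liver X receptors (LXR). All 28 were found among the 23406 genes of the table, Msmo1 under its older symbol Sc4mol, and all 28 passed the filter at a mean of 0.5 CPM that left 13961 genes to test.

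Spheres at passage 2 came from C57BL/6J mice, either wild type (WT) or lacking p66Shc (KO, p66-/-), at 2 months (young) or 12 months (aged), in 4 groups of 3 libraries. p66Shc is the longest of the proteins made from Shc1, and the knock-out is carried by the mouse and not restricted to mammary cells by any promoter named in the labels. Whether every library is its own animal and culture is not stated in the labels, so the p-values measure the spread between these libraries. CPM are read counts scaled to library size, which the authors adjusted with the trimmed mean of M-values (TMM). Changes are log2 fold changes of CPM + 0.5 with their SE, fitted with limma across all 13961 genes, and a gene was called at a Benjamini-Hochberg adjusted p under 0.05.

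Libraries held 31845169 to 109079737 reads, and the lowest count of any of the 28 genes in a library was 277 reads, for Idi1. Shc1, whose other isoforms remain in KO, was 296 ± 25.3 CPM in young WT, 211 ± 8.44 in aged WT, 208 ± 0.329 in young KO and 170 ± 7.6 in aged KO (SD, n = 3), so reads summed per gene check the labels only in part. Replicate 1 of young WT lay farther from its replicates than any other library, with an SD of 0.269 log2 over all genes tested against 0.132 to 0.22 elsewhere. In that library Nr1h2, Mvk and Mvd were lower than the mean of replicates 2 and 3 by more than 0.5 log2, a distance reached by 6.41% of all genes tested. Where a call of the 28 genes was gained without it, that is stated.

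The spheres were not purely epithelial. Summed over 8 luminal epithelial markers, including the keratins Krt8 and Krt18 and the adhesion gene Epcam, the level was 3649 to 3750 CPM in aged WT and 315 to 506 CPM in the other groups. Over 7 fibroblast markers it was 7041 to 7417 CPM in aged WT and 9006 to 11647 CPM elsewhere. At 12 months 4 of the 7 were called higher in KO than in WT and 3 lower, against 31.3% and 38.9% of all genes tested. The 6 basal markers summed to 195 to 212 CPM in aged WT and 25.2 to 58.9 CPM elsewhere. Aged KO stood out for 4 endothelial markers, at 205 to 217 CPM against 55.0 to 95.3 CPM elsewhere. Of 6 adipocyte markers, Plin1, Cidec, Lep and Retn were under 1 CPM in every library, and the sum over the list, 303 to 312 CPM in aged KO and 128 to 182 CPM elsewhere, was nearly all Fabp4, which other cell types also express. The 5 skeletal muscle markers summed to 878 to 1030 CPM in young WT and 172 to 193 CPM in aged WT. In KO the sums were 248 to 299 CPM in young and 801 to 1515 CPM in aged libraries. Most of this was Ttn, with means of 711 CPM in young WT and 1046 CPM in aged KO. Myh3, Acta1, Mylpf and Myog had higher means in young WT than in aged KO. The part of these cell types in the results that follow was not tested, and in bulk libraries fewer cells of a type and less RNA per cell cannot be told apart.

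Cells make cholesterol from acetyl-CoA through mevalonate, farnesyl diphosphate, squalene and lanosterol. The transcription factor SREBP2, encoded by Srebf2, drives the genes of this route. Its escort Scap carries it from the endoplasmic reticulum to the Golgi when sterol is scarce, and the Insig proteins retain the complex when sterol is plentiful. Oxysterols in turn activate LXR, which raises the export pumps Abca1 and Abcg1 and the ubiquitin ligase Mylip, which degrades lipoprotein receptors. The synthesis and export arms therefore usually respond in opposite directions to the sterol content of a cell.

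SREBP2 works at promoters together with NF-Y, which binds the letters CCAAT. RefSeq promoter windows of GRCm38.p6, which reach from upstream of each start to just past it, were matched for 22 of the 28 genes. The letters CCAAT, on either strand, were in a window of 14 of 15 synthesis genes (93.33%), 3 of 4 control genes and 1 of 3 efflux and LXR genes, against 41.06% of 27025 genes with a window. The sterol regulatory element, searched as TCACNCCAC on both strands, was in the Hmgcs1 window alone among the 22 genes and in 1.44% of all genes. The LXR element DR4, a direct repeat of AGGTCA with a spacer of 4 bases searched on both strands, was in none of the 22 and in 0.01% of all genes. No mismatch was allowed, and only 4 of 27025 genes matched. An absent match therefore cannot show that a window, such as that of Abca1, lacks an LXR element. A match is a description of letters and not a bound site. Shown are Hmgcs1 (chr13:119690101-119690400, plus strand), which opens the mevalonate route, Nsdhl (chrX:72918271-72918570, plus strand), which had the largest age by genotype difference, the feedback gene Insig1 (chr5:28071162-28071461, plus strand) and, for contrast, the export pump Abca1 (chr4:53159846-53160145, minus strand). Each is written in the direction of its gene, and capitals mark CCAAT or its complement ATTGG and, in Hmgcs1, also the element TCACCCCAC. The Abca1 window held none of these.
Hmgcs1: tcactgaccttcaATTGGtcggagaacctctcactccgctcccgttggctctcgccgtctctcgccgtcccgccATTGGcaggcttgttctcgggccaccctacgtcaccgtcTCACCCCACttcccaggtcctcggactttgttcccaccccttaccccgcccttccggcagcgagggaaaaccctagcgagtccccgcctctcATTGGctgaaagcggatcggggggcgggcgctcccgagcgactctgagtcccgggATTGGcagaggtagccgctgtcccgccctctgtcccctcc
Nsdhl: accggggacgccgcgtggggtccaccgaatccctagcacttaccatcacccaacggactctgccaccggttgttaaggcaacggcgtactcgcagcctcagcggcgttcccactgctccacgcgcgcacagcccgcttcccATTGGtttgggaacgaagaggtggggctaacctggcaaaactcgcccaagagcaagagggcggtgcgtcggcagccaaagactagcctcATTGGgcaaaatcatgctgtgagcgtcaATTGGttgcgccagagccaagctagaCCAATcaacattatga
Insig1: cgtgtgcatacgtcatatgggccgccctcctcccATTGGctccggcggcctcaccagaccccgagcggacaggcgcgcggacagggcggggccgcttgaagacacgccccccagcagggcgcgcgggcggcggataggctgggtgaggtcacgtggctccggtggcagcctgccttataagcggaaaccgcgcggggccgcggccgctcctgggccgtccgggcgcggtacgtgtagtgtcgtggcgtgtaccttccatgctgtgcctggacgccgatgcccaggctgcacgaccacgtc
Abca1: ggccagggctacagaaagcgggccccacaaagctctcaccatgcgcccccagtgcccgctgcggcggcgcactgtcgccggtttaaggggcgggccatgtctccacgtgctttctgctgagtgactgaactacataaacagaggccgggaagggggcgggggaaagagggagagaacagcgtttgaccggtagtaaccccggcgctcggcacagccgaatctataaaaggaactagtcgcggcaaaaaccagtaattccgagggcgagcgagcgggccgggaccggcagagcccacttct

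With age in WT, 14 of 18 synthesis genes fell, Dhcr7 rose and 3 were not called, while Abca1, Abcg1 and Mylip rose. Of the 28 genes, 17 were lower and 5 higher at 12 than at 2 months, where 35.6% of all genes tested were called lower and 22.3% higher. The median change was -0.45 log2, against -0.08 over all genes tested. Young and aged libraries were fully separated in 22 of the 28 genes, and in 62.3% of all genes tested. With age in KO the picture differed: 16 genes were higher and 2 lower, against 32.9% and 34.2% of all genes tested. The median there was 0.20 log2, against -0.02 over all genes. Libraries did not overlap in 18 of the 28, and in 72.9% of all genes.

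**Figure D1:**
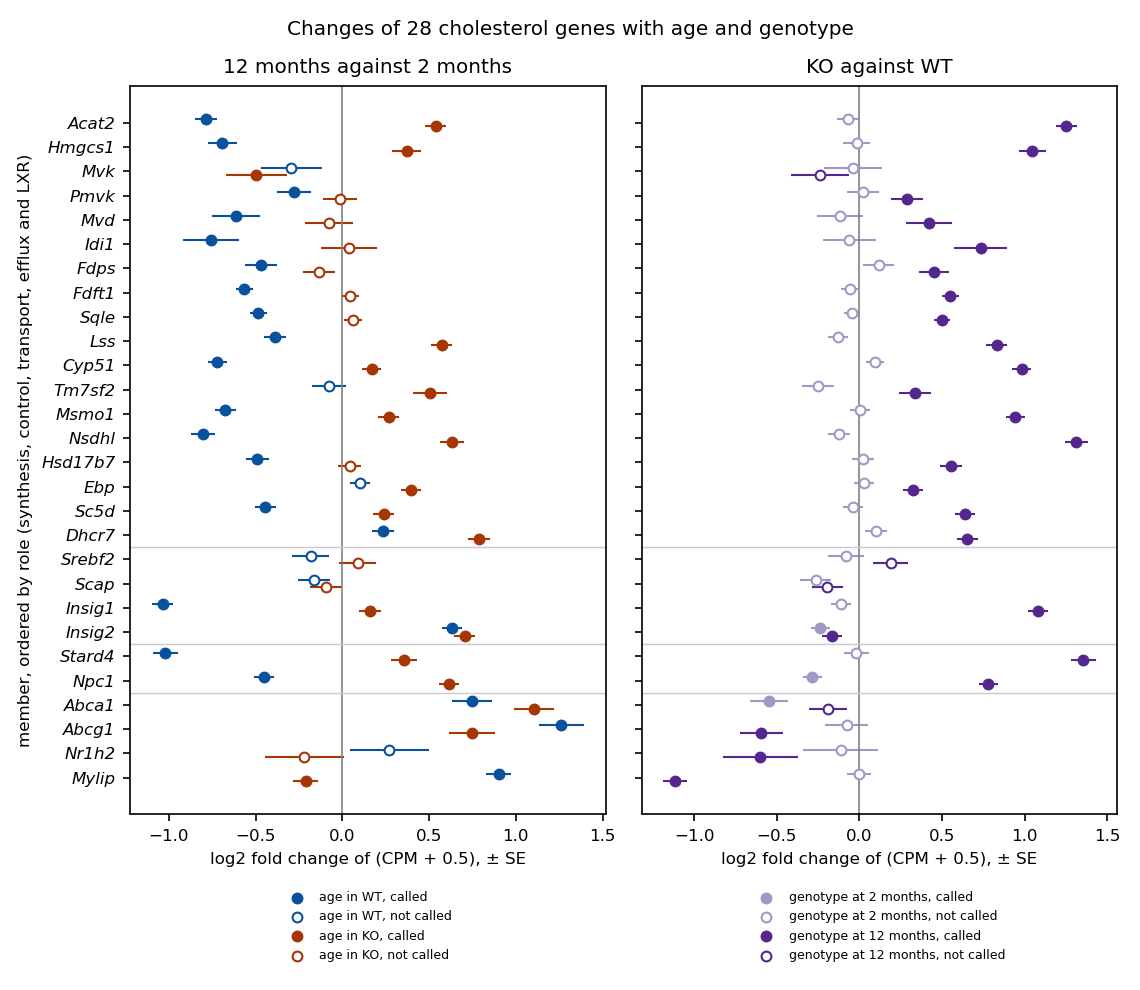
Log2 fold change of each of the 28 genes (x axis, log2 of CPM + 0.5, bars are SE) with age in WT and in KO (left) and between KO and WT at 2 and at 12 months (right), ordered by role. Filled points were called at an adjusted p under 0.05. In the left panel most synthesis genes lie below 0 in WT and at or above 0 in KO, and in the right panel 20 genes are called higher in KO at 12 months.

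The first steps condense acetyl-CoA units and make mevalonate and its isoprenoid products. Acat2, a cytosolic thiolase that makes acetoacetyl-CoA (chromosome 17, 12943041 to 12960725, minus strand), was 84.5, 79.4 and 83.8 CPM in young WT, 49.0, 48.4 and 45.5 in aged WT, 82.0, 77.0 and 76.7 in young KO, and 124, 113 and 106 in aged KO. The aged WT libraries were the lowest and the aged KO libraries the highest, without overlap. With age Acat2 fell in WT by 0.79 ± 0.06 (adjusted p = 1.52e-07) while it rose in KO by 0.54 ± 0.06 (adjusted p = 6.04e-06). Its near copy Acat3, with which reads could be shared, had at most 0.973 CPM in any group mean.

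Hmgcs1, the HMG-CoA synthase whose promoter is shown above (chromosome 13, 119690461 to 119708077, plus strand), was 505, 412 and 439 CPM in young WT, 293, 288 and 257 in aged WT, 470, 460 and 409 in young KO, and 609, 582 and 541 in aged KO. It fell in WT by 0.69 ± 0.08 (adjusted p = 7.99e-06) and rose in KO by 0.37 ± 0.08 (adjusted p = 0.0014). The decarboxylase Mvd fell in WT from 62.1 ± 14.5 to 39.6 ± 1.11 CPM (adjusted p = 0.00186), while it was 56.0 ± 2.08 and 53.4 ± 6.75 CPM in KO. The isomerase Idi1 fell in WT from 18.7 ± 2.67 to 11.04 ± 2.69 CPM (adjusted p = 0.00118), while it was 17.8 and 18.4 CPM in KO. Farnesyl diphosphate synthase, Fdps, fell in WT from 51.7 to 37.2 CPM (adjusted p = 0.000718), while it was 55.9 and 51.0 CPM in KO.

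Pmvk and Mvk are the kinases of the mevalonate route. Pmvk fell in WT from 32.8 ± 4.65 to 26.8 ± 2.58 CPM (adjusted p = 0.0271), a call lost with TMM over all 12 libraries, with both count tests and without replicate 2 or 3 of young WT or replicate 1 or 2 of aged WT, and was 33.1 and 32.8 CPM in KO. Mvk was 26.8, 48.7 and 43.9 CPM in young WT and 30.8, 30.9 and 32.3 in aged WT, so the groups overlapped through replicate 1 of young WT. Without that library Mvk was called lower with age in WT, by 0.55. In KO Mvk fell from 37.6 ± 2.03 to 26.8 ± 4.82 CPM (-0.50 ± 0.18, adjusted p = 0.0232), a call lost without replicate 1 or 3 of young KO or replicate 1 or 2 of aged KO. Pmvk and Fdps lie on chromosome 3, 29.1 and 317 kb from Shc1, and neither was called between genotypes at 2 months. At 12 months both were called higher in KO, Pmvk by 0.29 (adjusted p = 0.0187) and Fdps by 0.45 (adjusted p = 0.00071).

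The next enzymes build squalene, close it to lanosterol and trim lanosterol to cholesterol. Of these 11 genes, 8 fell with age in WT (72.7%, against 35.6% of all genes tested). In KO 8 rose (72.7%, against 32.9%), while Fdft1, Sqle and Hsd17b7 were not called. Nsdhl, which removes the methyl groups at carbon 4 (chromosome X, 72918520 to 72958528, plus strand), was 75.0, 63.6 and 69.9 CPM in young WT, 39.6, 39.3 and 39.6 in aged WT, 67.2, 64.1 and 59.7 in young KO, and 101, 104 and 92.3 in aged KO. The aged WT libraries lay within 0.4 CPM of each other and below every other library. Nsdhl fell in WT by 0.80 ± 0.07 (adjusted p = 2.87e-07) and rose in KO by 0.63 ± 0.07 (adjusted p = 2.84e-06).

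The abundant demethylation enzymes moved alike. Msmo1, the methylsterol monooxygenase, fell in WT from 552 ± 35.2 to 345 ± 15.4 CPM (-0.68 ± 0.06, adjusted p = 3.89e-07), while it rose in KO from 553 ± 29.2 to 665 ± 16.3 CPM (0.27 ± 0.06, adjusted p = 0.00136). The lanosterol demethylase Cyp51 fell in WT from 565 ± 34.7 to 343 ± 13.8 CPM (adjusted p = 1.36e-07), while it rose in KO from 603 ± 22.1 to 678 ± 24.5 CPM (0.17 ± 0.06, adjusted p = 0.0186). The Cyp51 call in KO was lost without replicate 3 of young KO or replicate 1 or 2 of aged KO. Lss, which closes the sterol rings, fell in WT from 128 to 98.0 CPM (adjusted p = 0.000108), while it rose in KO from 117 to 175 CPM (adjusted p = 2.59e-06). The desaturase Sc5d fell in WT from 148 to 109 CPM (adjusted p = 2.64e-05), while it rose in KO from 144 to 170 CPM (adjusted p = 0.00336).

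In 3 of the 11 genes no change with age was called in KO. Squalene synthase, Fdft1, fell in WT from 105 ± 5.25 to 70.7 ± 2.21 CPM (adjusted p = 5.04e-07), while it was 101 ± 3.42 and 104 ± 1.13 CPM in KO. Sqle, the squalene epoxidase, fell in WT from 254 ± 9.64 to 181 ± 7.04 CPM (adjusted p = 2.1e-06), while it was 246 ± 7.99 and 257 ± 9.03 CPM in KO. Hsd17b7, a sterol ketone reductase, fell in WT from 229 to 163 CPM (adjusted p = 2.78e-05), while it was 232 and 240 CPM in KO. Fdft1 shares 775 bases with Ctsb on the other strand. Ctsb was 5274, 3642, 4184 and 3962 CPM in young WT, aged WT, young KO and aged KO, and since the strand setting of the counting is not given in the sources used here, its part in the Fdft1 values cannot be told apart.

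Of the 11 genes, Dhcr7, Ebp and Tm7sf2 were not called lower with age in WT. Dhcr7, which makes cholesterol from its immediate precursor, went up with age, in WT from 24.0 ± 0.665 to 28.3 ± 1.45 CPM (a rise of 0.24 ± 0.06, adjusted p = 0.00698) and in KO from 25.8 ± 1.62 to 44.8 ± 1.73 CPM (0.79 ± 0.06, adjusted p = 1.95e-07). Ebp, the sterol isomerase, was 53.7 and 57.6 CPM in WT, called higher at 12 months with TMM over all 12 libraries and with both count tests, and rose in KO from 54.8 to 72.2 CPM (adjusted p = 5.74e-05). The reductase Tm7sf2 was 10.6 and 9.98 CPM in WT and rose in KO from 8.81 to 12.7 CPM (0.51 ± 0.10, adjusted p = 0.00045).

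**Figure D2:**
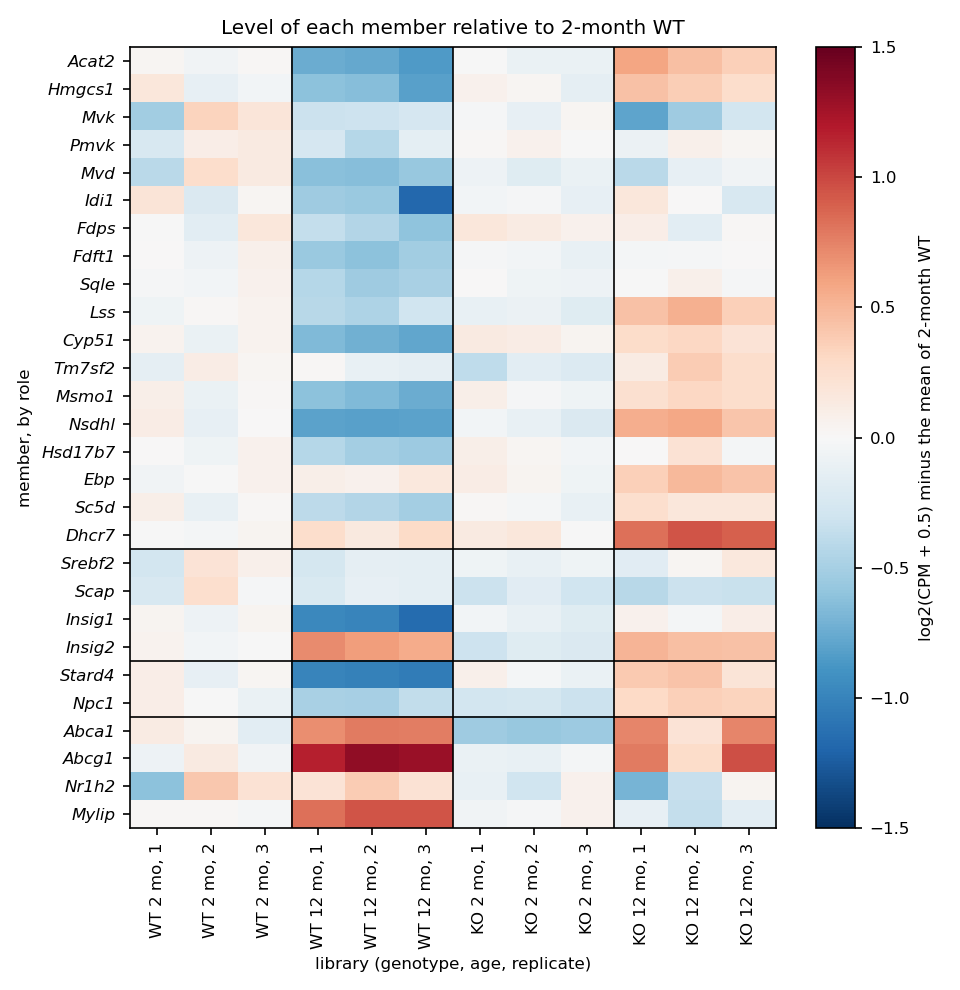
Level of each gene in each of the 12 libraries as log2(CPM + 0.5) minus the mean of young WT, with genes in rows by role and libraries in columns by group. The aged WT libraries are blue across most synthesis genes and red at Insig2, Abca1, Abcg1 and Mylip. The aged KO libraries are red at Acat2, Lss, Nsdhl, Dhcr7 and Npc1. They are also red at Insig2, Abca1 and Abcg1, with replicate 2 paler at Abca1 and Abcg1.

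In the control circuit the feedback genes changed while the factor and its escort were not called. Srebf2 was 87.2, 122 and 111 CPM in young WT, 87.9, 96.7 and 95.5 in aged WT, 101, 97.8 and 101 in young KO, and 94.4, 108 and 119 in aged KO. Libraries overlapped in each pair of groups compared, and Srebf2 was called in none of the 5 comparisons by limma (adjusted p from 0.129 to 0.682). Without replicate 1 of young WT, it was called lower with age in WT (-0.32), higher in KO at 12 months (0.19) and in the interaction (0.41). It was also called higher in KO at 12 months with DESeq2 (0.25) and without replicate 1 of aged KO (0.28). Scap was 131 ± 22.1, 116 ± 4.36, 108 ± 5.92 and 101 ± 3.88 CPM in young WT, aged WT, young KO and aged KO, and was likewise not called. Without the same library Scap was called lower with age in WT (-0.28) and lower in KO at 2 months (-0.38) and 12 months (-0.20). The 12-month call was also made without replicate 2 of young WT, and both genotype calls with the replicate block. Young WT libraries enter the 12-month comparison only through the estimate of spread shared by the 4 groups. With them included, the 12-month changes were likewise 0.19 for Srebf2 and -0.20 for Scap.

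Insig1, itself a target of SREBP2 (chromosome 5, 28071411 to 28078662, plus strand), was 514, 474 and 516 CPM in young WT, 256, 251 and 226 in aged WT, 488, 462 and 441 in young KO, and 524, 493 and 536 in aged KO. The aged WT libraries stood below all others. Of the 28 genes Insig1 had the largest fall in aging WT (-1.04 ± 0.06, adjusted p = 9.14e-09), whereas KO showed a rise of 0.16 ± 0.06 (adjusted p = 0.038), a call lost with no filter and without replicate 2 or 3 of young KO or replicate 1 or 3 of aged KO.

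Insig2, the second retention protein, which is not driven by SREBP2 in the same way (chromosome 1, 121304352 to 121332589, minus strand), was 35.1, 32.9 and 33.8 CPM in young WT, 55.9, 52.9 and 50.1 in aged WT, 27.4, 29.8 and 29.1 in young KO, and 48.6, 46.7 and 46.3 in aged KO. Both aged groups lay above both young groups. It rose with age in WT by 0.63 ± 0.06 (adjusted p = 6.63e-07) and in KO by 0.70 ± 0.06 (adjusted p = 2.2e-07), with an interaction of 0.07 ± 0.08 that was not called (adjusted p = 0.48). Within a library, Insig1 exceeded Insig2 in CPM by 3.88 ± 0.0424 log2 in young WT, 2.21 ± 0.0403 in aged WT, 4.01 ± 0.126 in young KO and 3.46 ± 0.0706 in aged KO (SD, n = 3). This difference does not depend on library scaling and was smallest in aged WT.

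The transport genes moved with synthesis. Stard4, a soluble carrier of cholesterol between membranes and a target of SREBP2, was 73.8, 63.3 and 70.2 CPM in young WT, 34.4, 33.8 and 33.1 in aged WT, 72.7, 67.5 and 64.5 in young KO, and 90.4, 93.0 and 78.8 in aged KO. All aged WT libraries were near 34 CPM and all aged KO libraries above every other. Stard4 fell in WT by 1.02 ± 0.07 (adjusted p = 6.17e-08) and rose in KO by 0.35 ± 0.07 (adjusted p = 0.000961).

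Npc1, which releases lipoprotein cholesterol from lysosomes, was 390, 362 and 340 CPM in young WT, 259, 258 and 282 in aged WT, 301, 303 and 291 in young KO, and 448, 466 and 457 in aged KO. It fell in WT by 0.45 ± 0.06 (adjusted p = 1.31e-05) and rose in KO by 0.61 ± 0.06 (adjusted p = 5.97e-07). At 2 months Npc1 was lower in KO than in WT without overlap.

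Of the 4 efflux and LXR genes, 3 rose with age in WT, where 22.3% of all genes tested were called higher, and Nr1h2 was not called. Abcg1, an exporter of cholesterol to lipoprotein particles (chromosome 17, 31057693 to 31117981, plus strand), was 39.0, 45.3 and 39.9 CPM in young WT, 93.0, 105 and 102 in aged WT, 38.6, 38.2 and 40.6 in young KO, and 71.0, 49.99 and 81.0 in aged KO. Replicate 2 was the lowest of the aged KO libraries. Abcg1 rose with age, by 1.26 ± 0.13 for WT (adjusted p = 2.12e-06) and 0.75 ± 0.13 for KO (adjusted p = 0.000229).

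Abca1, the pump that loads cholesterol onto lipid-poor apolipoproteins (chromosome 4, 53030788 to 53159895, minus strand), was 249.1, 236 and 204 CPM in young WT, 370, 394 and 390 in aged WT, 159, 154 and 156 in young KO, and 382, 265 and 379 in aged KO. Replicate 2 was again the lowest aged KO library. Abca1 rose with age, by 0.75 ± 0.12 for WT (adjusted p = 8.71e-05) and 1.11 ± 0.12 for KO (adjusted p = 1.93e-06). Its interaction of 0.36 ± 0.16 was not called (adjusted p = 0.0747), but was called without replicate 3 of young WT (0.44) or replicate 2 of aged KO (0.53).

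Mylip, the LXR-induced ligase (chromosome 13, 45389741 to 45411940, plus strand), was 22.7, 22.8 and 21.96 CPM in young WT, 40.1, 43.5 and 43.7 in aged WT, 21.6, 22.2 and 23.5 in young KO, and 20.7, 17.4 and 20.0 in aged KO. The aged WT libraries stood above all others. Mylip rose by 0.90 ± 0.07 in WT (adjusted p = 1.42e-07) and fell in KO by 0.21 ± 0.07 (adjusted p = 0.0192). The KO call was lost without replicate 3 of young KO or replicate 2 of aged KO. Nr1h2, which encodes LXR beta, was 18.7, 38.6 and 33.6 CPM in young WT, 33.6, 37.8 and 33.8 in aged WT, 26.8, 23.5 and 30.4 in young KO, and 17.7, 22.7 and 29.9 in aged KO. Its libraries scattered within groups and it was not called with age in either genotype. Nr1h2 does not stand for both LXR genes. Nr1h3, counted below among the further cholesterol genes, averaged 34.8 CPM in young WT, 25.6 in aged WT, 24.3 in young KO and 42.9 in aged KO. Limma called its fall in aging WT (-0.43), its rise in aging KO (0.81) and its interaction (1.24). Relative to WT, Nr1h3 was called lower in KO at 2 months (-0.51) and higher at 12 months (0.73).

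**Figure D3:**
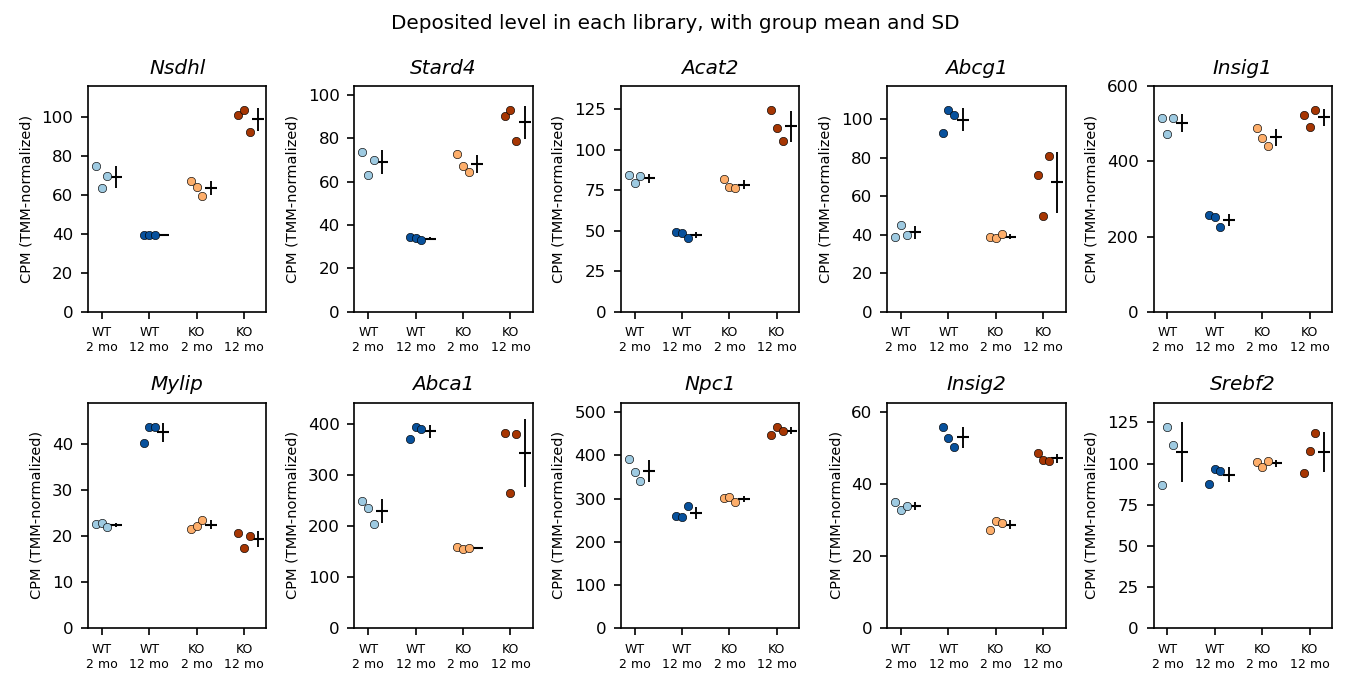
Deposited CPM (y axis, from 0) in each of the 3 libraries of the 4 groups for 10 of the genes described above, with group mean and SD beside the points. Nsdhl, Stard4, Acat2 and Insig1 are lowest in aged WT, Mylip is highest there, and Insig2 is higher at 12 than at 2 months in both genotypes.

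The age effects of the genotypes were compared directly in the age by genotype interaction, the age change in KO minus that in WT. It was called positive for 19 of the 28 genes and negative for 2, against 31.4% and 26.2% of all genes tested. The median was 0.55 log2, against 0.02 over all genes. Among the 18 synthesis genes 16 had a positive call, and Mvk and Pmvk were not called. Without replicate 1 of young WT, Pmvk was called too (0.39, adjusted p = 0.00751 by limma). The interaction was 1.44 ± 0.10 for Nsdhl (adjusted p = 4.56e-08), 1.37 ± 0.11 for Stard4 (adjusted p = 1.53e-07), 1.32 ± 0.09 for Acat2 (adjusted p = 4.5e-08), 1.19 ± 0.09 for Insig1 (adjusted p = 1.06e-07) and 1.07 ± 0.08 for Npc1 (adjusted p = 1.23e-07).

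The negative calls were Mylip (-1.11 ± 0.10, adjusted p = 7.53e-07) and Abcg1 (-0.52 ± 0.19, adjusted p = 0.0298). The Abcg1 call was lost with no filter and without replicate 3 of young WT, replicate 2 or 3 of aged WT or replicate 3 of young KO. The call for Fdps (0.33 ± 0.13, adjusted p = 0.0435) was lost in 13 of 20 alternatives and that for Mvd (0.54 ± 0.20, adjusted p = 0.0311) in 10. With TMM over all 12 libraries 17 positive and 2 negative calls were made.

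By the pair of age calls, 10 genes were lower at 12 months in WT and higher in KO: Acat2, Hmgcs1, Lss, Cyp51, Msmo1, Nsdhl, Sc5d, Insig1, Stard4 and Npc1. A further 7, Pmvk, Mvd, Idi1, Fdps, Fdft1, Sqle and Hsd17b7, were lower in WT and not called in KO. Dhcr7, Insig2, Abca1 and Abcg1 were higher in both, and Mylip was higher in WT and lower in KO. The share of all genes tested with each pair of calls is not given here. Singly, 35.6% of all genes tested were lower and 22.3% higher with age in WT, and 34.2% lower and 32.9% higher in KO. Beside this, the summed level of 9 genes of dividing cells, such as Mki67 and Top2a, fell with age in both genotypes, from 1392 to 1558 CPM to 476 to 496 CPM in WT and from 1338 to 1461 CPM to 451 to 615 CPM in KO, with all 9 called lower in each. Their part in the results was not tested.

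Between genotypes at 2 months few of the genes differed. By limma 0 were called higher in KO and 3 lower, where 1.86% and 14.2% of all genes tested were called. At an unadjusted p under 0.05 limma had 0 higher, edgeR 4, DESeq2 3 and limma with TMM over all 12 libraries 3. At an adjusted p edgeR called 0 higher and DESeq2 1, Cyp51 (0.18). Libraries of the groups did not overlap in 5 of the 28 genes and in 32.1% of all genes. The lower ones were Abca1 (230 ± 23.0 against 156 ± 2.13 CPM, -0.55 ± 0.12, adjusted p = 0.00572), Npc1 (-0.28 ± 0.06, adjusted p = 0.00411) and Insig2 (-0.24 ± 0.06, adjusted p = 0.0152). The Insig2 call was lost with TMM over all 12 libraries, with both count tests and without replicate 1 of young KO, and that of Npc1 with edgeR. Without replicate 1 of young WT 6 genes were called lower. Over all genes tested, calls in either direction then went from 2245 to 3033. The deposited scaling matters here: of all calls 11.5% were higher in KO, and 29.2% with TMM over all 12 libraries. Changes of the 18 synthesis genes ran from -0.25 to 0.12 log2, and limma called 0 of them, with 1 at an unadjusted p under 0.05. Without replicate 1 of young WT, Mvd (-0.32, adjusted p = 0.0205) and Tm7sf2 (-0.32, adjusted p = 0.0378) were called lower in KO by limma.

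Between genotypes at 12 months 20 of the 28 genes were higher in KO and 4 lower, against 31.3% and 38.9% of all genes tested. The median was 0.53 log2, against -0.07 over all genes. Libraries did not overlap in 25 of the 28, and in 73.9% of all genes. Of the 18 synthesis genes 17 were higher, and Mvk (-0.24) was not called. Without replicate 1 of young WT, Mvk was called lower in KO at the same change of -0.24. That library enters this comparison only through the estimate of spread shared by the 4 groups. The Mvd call was lost without replicate 2 or 3 of aged KO, and the Pmvk call without replicate 2 of aged WT or of aged KO. Stard4 was higher in KO by 1.36 ± 0.07 (adjusted p = 2.9e-09), Nsdhl by 1.31 ± 0.07 (adjusted p = 1.75e-09), Acat2 by 1.25 ± 0.06 (adjusted p = 1.21e-09), Insig1 by 1.08 ± 0.06 (adjusted p = 4.5e-09), Hmgcs1 by 1.05 ± 0.08 (adjusted p = 1.04e-07) and Npc1 by 0.78 ± 0.06 (adjusted p = 4.37e-08).

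The 4 lower genes were Mylip (-1.12 ± 0.07, adjusted p = 1.34e-08), Abcg1 (-0.59 ± 0.13, adjusted p = 0.00126), Nr1h2 (-0.60 ± 0.23, adjusted p = 0.0301) and Insig2 (-0.16 ± 0.06, adjusted p = 0.0233). Abca1, at 385 ± 12.7 CPM in WT and 342 ± 66.8 in KO, was not called (adjusted p = 0.159). The Nr1h2 call was lost with no filter, with DESeq2 and without any of the aged libraries other than replicate 3 of KO. The Insig2 call was lost with DESeq2 and without replicate 1 or 2 of aged WT or replicate 2 or 3 of aged KO. The luminal markers were lower in KO than in WT at 12 months in 8 of 8 cases, and the macrophage markers summed to 959 to 1026 CPM in WT and 389 to 771 in KO. Of the 9 macrophage markers 5 were called lower in KO and 2 higher, against 38.9% and 31.3% of all genes tested. Mean Lyz2 was 645 CPM in aged WT and 281 in aged KO, and mean Mrc1 71.8 and 179 CPM. The part of the luminal or macrophage markers in these differences was not tested.

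Synthesis was set against efflux in each library as the mean log2(CPM + 0.5) of the 18 synthesis genes minus that of the 4 efflux and LXR genes, a description without a test in which library scaling nearly cancels. The difference was 0.81 ± 0.15 in young WT, -0.44 ± 0.104 in aged WT, 0.96 ± 0.108 in young KO and 0.83 ± 0.253 in aged KO (SD, n = 3). It was below 0 in the 3 libraries of aged WT, from -0.52 to -0.32, and above 0 in the other 9, from 0.59 to 1.09. In WT the synthesis mean fell by 0.46 with age and the efflux mean rose by 0.80. In KO the synthesis mean rose by 0.22 and the efflux mean by 0.36, so the difference moved by -0.14. Leaving out 1 library gave values from -0.27 (without replicate 2 of aged KO) to -0.02 (without replicate 3 of aged KO), and leaving Nr1h2 out of the efflux group gave -0.33. The efflux mean in KO joins changes in opposite directions. With age the pumps Abca1 and Abcg1 rose there by 1.11 and 0.75, while Mylip changed by -0.21 and Nr1h2, not called, by -0.22.

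**Figure D4:**
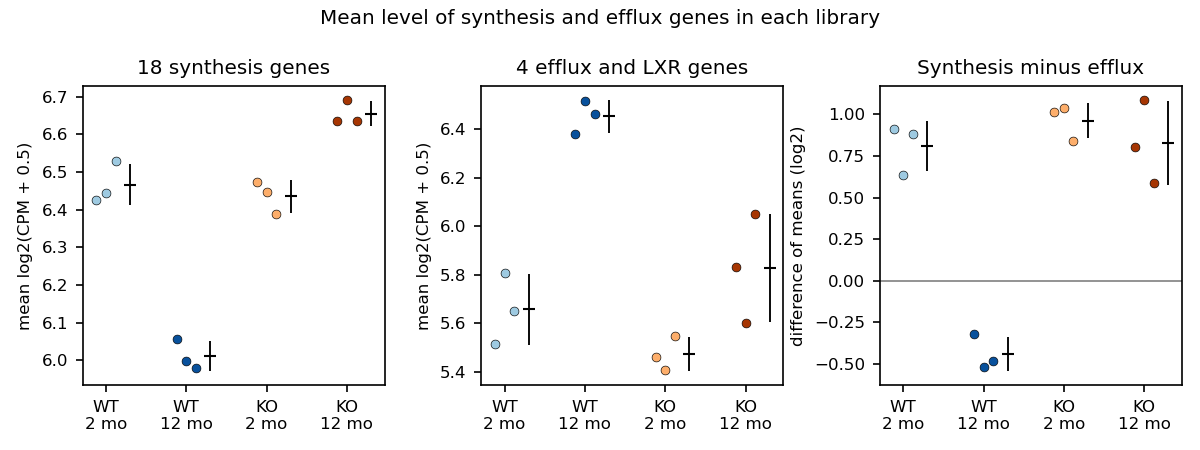
Mean log2(CPM + 0.5) of the 18 synthesis genes (left), of the 4 efflux and LXR genes (middle) and their difference (right) in each library, with group mean and SD. The axes of the left and middle panels do not start at 0. The difference is below 0 in the aged WT libraries, with a mean of -0.44, and above 0 in the other libraries.

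Levels between genes were compared per kilobase of the longest GENCODE vM21 transcript, in young WT. Insig1 and Msmo1 were the highest, both at 186 CPM per kb, followed by Cyp51 with 144 and Hmgcs1 with 130.5. Npc1 had 63.3, Sqle 56.8, Srebf2 21.1 and Abca1 22.4 CPM per kb. The lowest were Abcg1 with 7.10, Idi1 with 6.19 and Tm7sf2 with 3.43 CPM per kb.

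Of 46 further cholesterol genes, covering other synthesis and control genes, uptake and storage, transport, LXR and oxysterol genes and the non-sterol branches, 22 were lower (47.8%) and 6 higher (13.0%) with age in WT, against 35.6% and 22.3% of all genes tested. In KO 16 were higher (34.8%) and 10 lower (21.7%), against 32.9% and 34.2%. At 12 months 21 were higher (45.7%) and 16 lower (34.8%) in KO than in WT, against 31.3% and 38.9%. The medians were -0.13, 0.03 and 0.09 log2, against -0.08, -0.02 and -0.07 over all genes tested. At 2 months, where the deposited scaling matters, 11 of the 46 were lower in KO than in WT (23.9%) and 0 higher, against 14.2% and 1.86%. The uptake, release and storage genes had 8 of 9 lower with age in WT (88.9%, against 35.6% of all genes), and 5 of 9 higher in KO (55.6%, against 32.9%). At 2 months 6 of these 9 were lower in KO than in WT (66.7%), but 0 of 7 transport genes and 0 of 11 non-sterol genes. Among these the endocytic receptor Lrp1 fell in WT from 1119 ± 176 to 694 ± 21.6 CPM and rose in KO from 743 ± 62.0 to 3262 ± 334 CPM (2.13 ± 0.11, adjusted p = 1.91e-09). The receptor Vldlr was 596 and 351 CPM in WT and 476 and 1071 CPM in KO, with an interaction of 1.93 ± 0.07 (adjusted p = 3.15e-10).

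The 11 genes of the non-sterol branches, which make dolichol, ubiquinone and prenyl groups, had 3 lower and 2 higher with age in WT (27.3% and 18.2%), and 4 lower and 1 higher in KO (36.4% and 9.09%), so their shares of lower calls were near or under those of all genes. In the transport list, the caveolar gene Cav1 fell with age in both genotypes, with means of 894 and 452 CPM for WT (adjusted p = 9.15e-08) and 970 and 702 CPM for KO (adjusted p = 0.000115). Arl4c, a small GTPase gene that LXR induces, rose in WT from 78.1 ± 4.75 to 103 ± 3.30 CPM (adjusted p = 0.00146), while it fell in KO from 71.6 ± 1.58 to 23.3 ± 3.47 CPM (-1.61 ± 0.09, adjusted p = 3.43e-09). In the LXR and oxysterol list of 9 genes that holds Arl4c and Cyp7b1, 1 was higher and 1 lower with age in WT. These are 11.1% each, against 22.3% and 35.6% of all genes tested. In KO 5 were higher and 2 lower (55.6% and 22.2%), against 32.9% and 34.2%. At 2 months 4 of the 9 were lower in KO than in WT (44.4%) and 0 higher, against 14.2% and 1.86%. Cyp7b1, an oxysterol hydroxylase, was 7.23 and 6.97 CPM in WT and rose in KO from 5.39 to 16.8 CPM (1.55 ± 0.12, adjusted p = 7.82e-08).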

How the data were processed

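Total RNA of 12 mammosphere samples was sequenced from TruSeq Stranded libraries, per the labels' protocols. Per the submitters' processing notes, TopHat2 2.1.0, Bowtie2 2.2.4, SAMtools 0.1.18 and HTSeq 0.6.1p1 were used with mm10. Annotation, strand setting and treatment of multimapping reads were not given in the sources used here. As signal, the authors deposited CPM after TMM normalization with edgeR, per the file headers.

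The 28 genes and all lists were chosen with earlier results of these data known. The scale was log2(CPM + 0.5), and 13961 genes averaging 0.5 CPM or more were tested. A model of the 4 groups with 8 residual degrees of freedom was fitted to the 12 libraries (limma 3.58.1, R 4.3.3, trended prior variance), and p-values were adjusted by Benjamini-Hochberg within each of 5 comparisons. The design assumed a normalized value and was followed as written. The fit was tested on simulated data.

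Whole reads were recovered by dividing each value by the CPM of 1 read. Of the values above 0, 99.85% to 100% lay within 0.1 of a whole number. A count of 3 reads stood for 0.029 to 0.0859 CPM. The edgeR 4.0.16 quasi-likelihood test on these reads called 7664 and 9333 genes for age (WT, then KO), 1414 and 9772 for genotype (young, then aged) and 8120 for the interaction, against 8091, 9358, 2245, 9801 and 8051 with limma. DESeq2 1.42.0 was a second count test. Other alternatives were pseudocounts of 0.1 and 1, no filter and a filter at 2 CPM, TMM over all 12 libraries, a replicate block and leaving out each library. TMM over all 12 libraries moved the median change of all genes from -0.08 to -0.02 for age in WT and from -0.09 to -0.0044 for genotype at 2 months.

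Values library by library are given for the 8 genes with the largest called age change or interaction and for Insig1, Insig2, Srebf2, Abca1 and Abcg1, and for further members where a result turns on them. Of the further cholesterol genes, those with the largest called changes may be named, and some that this rule allows are left out. Coordinates are as deposited. Promoter windows are from RefSeq on GRCm38.p6, and transcript lengths from GENCODE vM21.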

Additional observations from a re-analysis of the deposited data

Results flagged for a closer look

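The age effect differed between KO and WT by the interaction test in 21 of the 28 genes, which flagged them. Of all genes tested, 31.4% had a positive and 26.2% a negative interaction call. The difference, as age change in KO minus age change in WT on the log2 scale, was 1.44 for Nsdhl, 1.37 for Stard4, 1.32 for Acat2, 1.19 for Insig1, 1.07 for Npc1, 1.06 for Hmgcs1, 0.96 for Lss, 0.94 for Msmo1 and 0.89 for Cyp51. It was 0.80 for Idi1, 0.68 for Sc5d, 0.61 for Fdft1, 0.58 for Tm7sf2, 0.55 for Dhcr7, 0.54 for Mvd, 0.54 for Sqle, 0.53 for Hsd17b7, 0.33 for Fdps and 0.29 for Ebp. It was -0.52 for Abcg1 and -1.11 for Mylip. Groups of 3 libraries are too small for the test of a single outlying library.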

How the results depend on the processing

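Of 88 called changes of single genes, 73 kept direction and call in each of 20 alternatives. All 22 sign changes were in comparisons that limma did not call, and none was called where the sign changed. For genotype at 2 months, TMM over all 12 libraries gave 0.0099 for Abcg1, 0.0164 for Acat2, 0.083 for Mylip, 0.0067 for Srebf2 and 0.070 for Stard4, edgeR gave 0.0225, 0.031, 0.101, 0.0086 and 0.084, and DESeq2 gave 0.0096 for Abcg1, 0.0181 for Acat2, 0.088 for Mylip and 0.071 for Stard4. Leaving out 1 library gave -0.0371 to 0.0239 for Mylip, -0.0789 to 0.0312 for Stard4 and -0.221 to 0.0223 for Srebf2. The Insig2 interaction was -0.0201 with edgeR.

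Counts moved by more than 1.5 times as follows. At 2 months edgeR called 1 gene lower in KO and DESeq2 1 higher. At 12 months DESeq2 called 2 lower. In the interaction no filter left 1 negative call. Leaving out 1 library gave 0 to 2 genes lower with age in KO, 2 to 6 lower in KO at 2 months, 2 to 6 lower in KO at 12 months and 1 to 2 negative interactions. The rises with age in KO (14 to 16), falls with age in WT (16 to 20), higher genes in KO at 12 months (18 to 21) and positive interactions (17 to 20) moved less. Without Nr1h2 in the efflux group, synthesis minus efflux was 0.55, -0.88, 0.73 and 0.40 in young WT, aged WT, young KO and aged KO, and its age change in WT -1.43. The cause of these changes was not tested.

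No label says that a replicate number marks a shared animal, litter or day, so the numbers were not taken as pairs. Deviations of same-numbered libraries had correlations of -0.163 to 0.335 between groups, positive throughout for replicates 1 and 3. A replicate block raised the calls over all genes tested in each comparison, from 8091 to 8453 for age in WT and from 2245 to 2590 at 2 months. With a replicate block 5 genes were higher and 17 lower with age in WT, 16 and 2 with age in KO, 0 and 4 at 2 months, 20 and 5 at 12 months, and 19 and 2 in the interaction. The ± values are SDs over 3 libraries or SEs of the fit and hold the spread between libraries, and groups of 3 limit their precision.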
